A study of Mus musculus with 5 samples.

Results

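Translation factors and tRNA synthetases were followed in the lungs of 129svJ mice treated with bleomycin, an antibiotic that cleaves DNA and is used to injure the lung. Members were the genes whose symbol in the platform's annotation named an initiation factor (Eif1 to Eif6), an elongation factor (Eef1, Eef2) or an aminoacyl-tRNA synthetase (1 letter of the amino acid followed by "ars", with or without a final 1 or 2), leaving out the sex-linked pair Eif2s3x and Eif2s3y. Of 70 such symbols, 59 had at least 1 feature with values on 4 or more of the 5 arrays, 43 of them translation factors or proteins named after one and 16 tRNA synthetases. They stand among 10081 genes and unnamed features tested.

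Each of the 5 two-colour arrays compared amplified lung RNA of 1 bleomycin-treated mouse with the same pool of amplified lung RNA from control 129svJ mice. There is 1 group of treated mice, numbered 1 to 5, and the pool is its only control. Dose, route, time after treatment, age, sex and the number of mice in the pool are unstated in the labels. Values are log ratios per feature, taken as log2, and their direction is not settled, since neither the dyes nor the order of division are stated. Results are therefore given as the side of 0 and its size, and neither side is read as more RNA in the treated mouse. Lung is a mixture of cells, so a change in the number of cells of a type and a change in RNA per cell cannot be told apart here.

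Protein synthesis starts when a small ribosomal subunit, loaded with initiator tRNA by eIF2 and held by eIF3, is brought to the capped end of an mRNA by eIF4E, eIF4G and the helicase eIF4A. Elongation factors then deliver aminoacyl-tRNAs and move the ribosome along, and tRNA synthetases charge each tRNA with its amino acid. Stress kinases that phosphorylate eIF2 lower bulk initiation and favour translation of the transcription factor ATF4, whose targets include many synthetases, while the kinase mTOR acts on cap binding through the eIF4E-binding proteins.

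The arrays held values for 11350 to 12083 of 17280 features, with deposited medians from 0.011 to 0.026, and correlated with each other at r = 0.732 to 0.857 across genes, which share the pool and are not independent.

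Translation genes lay on both sides of 0, and genes of 1 complex could differ in side. Everything tested was split as well, with 24.1% passing the test below 0 and 25.6% above. The helicase gene Eif4a2, the elongation factor genes Eef1a1 and Eef2, the scaffold subunit gene Eif3a and the eIF2 kinase gene Eif2ak3 stood at least 2-fold above 0. The cap-binding protein gene Eif4e, the exchange factor gene Eef1b2, and the genes Eif1a and Eif5a stood at least 2-fold below it. Of the 16 tRNA synthetase genes, 8 passed the test above 0, by at most 1.71-fold, and 0 passed below, beside 25.6% and 24.1% of everything tested. Yars, at −0.71, just missed passing below 0. If the pool counts as a single control mouse, 0 of the synthetase genes passed on either side.

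By limma against 0 (two-sided, Benjamini-Hochberg over all 10081, threshold at an adjusted p of 0.05), 15 of the 59 members passed below 0 and 22 above, and 22 did not pass. Over everything tested, 24.1% passed below 0 and 25.6% above, 49.7% in all. The members' median log2 ratio was 0.014, against −0.0093 for all, and their median size was 0.30 against 0.21. All measured mice lay on 1 side for 36 of the 37 members that passed. The test favours such genes, since it weighs the mean against the spread of these same values, so this count adds no support. At 2-fold or more stood 9 members, 4 below and 5 above, beside 2.37% below and 3.22% above, 5.59% in all, of everything tested. The test takes the pool as fixed. If the pool is treated as a single control mouse that varies like the treated mice, 1 member stayed below 0 (Eif4e) and 4 above (Eif4a2, Eef1a1, Eif3a and Eif2ak3), beside 2.08% and 2.87% of everything tested (4.95% in all). The other 32 calls among the members are lost in that setting. In the counts by role and by list, a gene counted as below or above 0 is one past the threshold. Every such count is to be read beside the 24.1% below and 25.6% above of everything tested.

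Marker lists of other cells were tested in the same way, beside 24.1% below and 25.6% above for everything tested. Of the measured genes, 7 of 8 for macrophages passed below 0 and 1 above, 5 of 7 for dividing cells below and 1 above, 7 of 9 for skeletal muscle below and 0 above, and 4 of 4 for endothelium above. Of 4 cardiac muscle genes 3 passed above 0 and 0 below, of 7 lung epithelial genes 3 above and 1 below, and of 5 genes of T, B and plasma cells 0 above and 2 below. With the pool as a single control mouse, 4 macrophage and 2 dividing cell genes stayed below 0, and 0 for skeletal muscle. Above 0 stayed 3 endothelial, 1 cardiac muscle and 1 lung epithelial gene. The calls of Myh2, Acta1, Tnni2, Mylpf, C1qc, Tie1 and Cd79a were also lost when certain single mice were left out. Over the genes measured in each mouse, the mean of the macrophage list ran from −2.19 to −1.43 over the mice and that of dividing cells from −0.98 to −0.55. A ratio gives no level, so the labelled tissue could not be checked by how strongly its markers are expressed. The part of these cells in the ratios of translation genes was not tested.

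**Figure D1:**
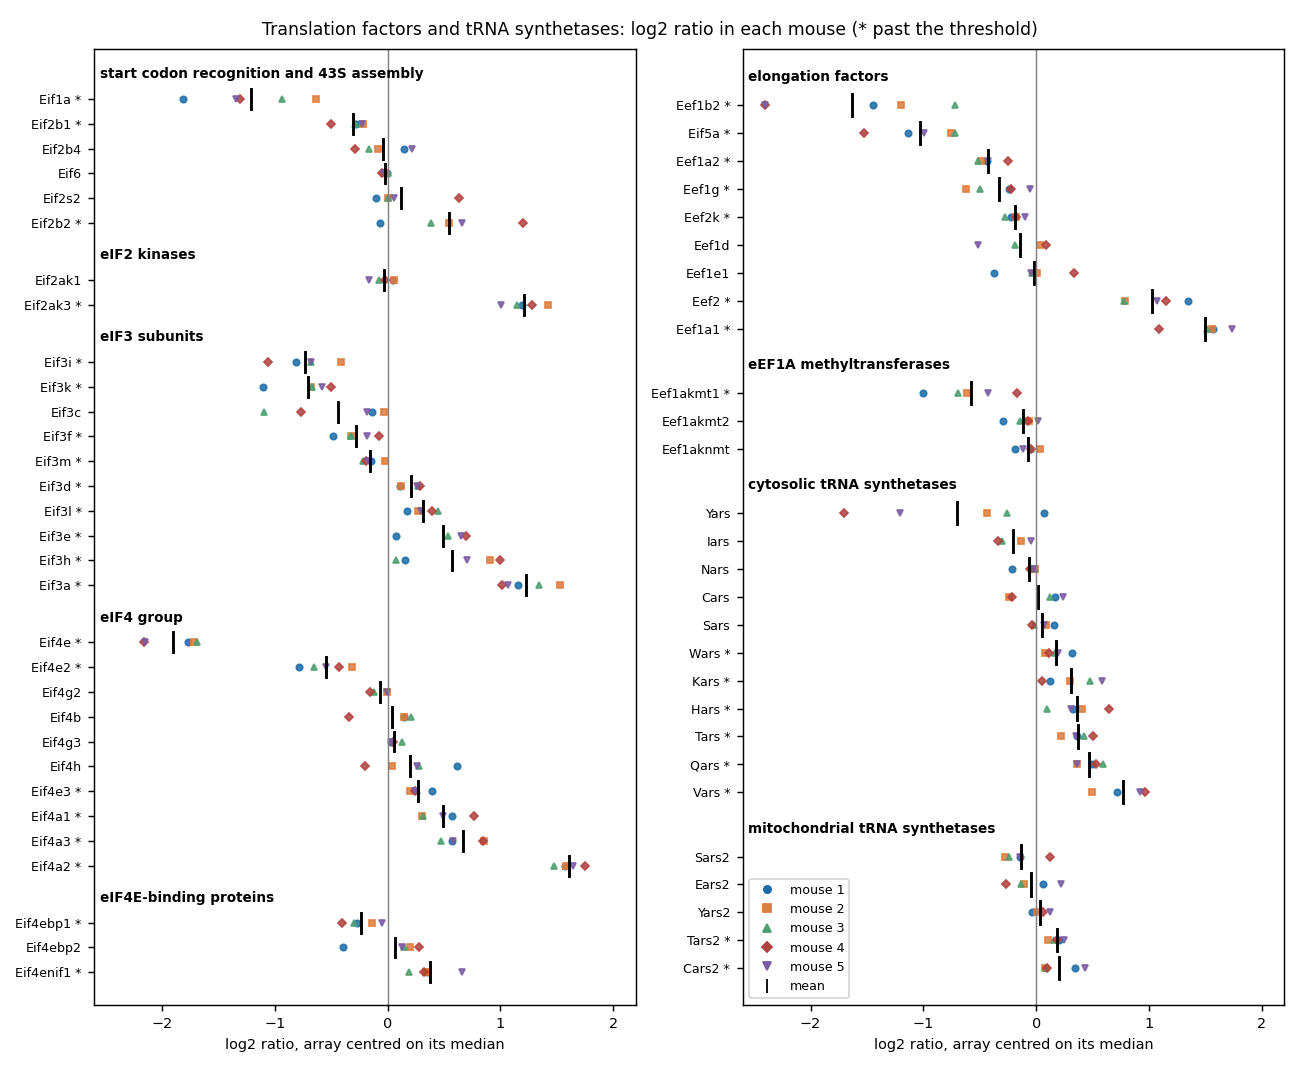
Log2 ratio of each of the 59 members (horizontal axis, array centred on its median) in each mouse, grouped by role, with the mean as a vertical bar and an asterisk where limma's adjusted p was under 0.05. Eif4e, Eef1b2, Eif1a and Eif5a lie farthest to the left and Eif4a2, Eef1a1, Eif3a, Eif2ak3 and Eef2 farthest to the right, and the mice are widely spread for Eef1b2 and Yars.

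**Figure D2:**
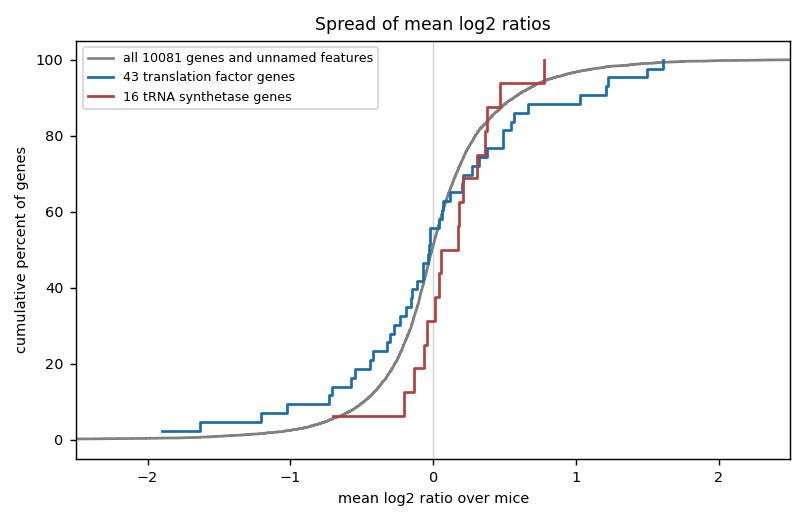
Cumulative percent of genes (vertical axis) by mean log2 ratio over mice (horizontal axis) for the 10081 genes and unnamed features, the 43 translation factor genes and the 16 tRNA synthetase genes. The factors have a median size of 0.33 against 0.21 for everything tested, and the synthetases lie in a narrower range than the factors, from −0.71 to 0.77. Values outside −2.5 to 2.5 are not drawn.

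Promoter windows from RefSeq (GRCm38.p6, 250 bases before to 50 after each annotated start) were found for 43 of the 59 members, 57 windows in all. The E-box CACGTG, the same on both strands and bound by MYC and related factors, was in 15 of the 57 windows (26.3%) and in 7.15% of all 32851 windows of that length. Members with it lay on both sides of 0 or did not pass, and the windows of Eif4e, Eif5a and Eef2, all at least 2-fold from 0, are shown because 2 of these genes stand below 0 and 1 above. Eif3a, at least 2-fold above 0, holds a match too, from base 23 after its start. Capitals mark the match, 5′ to 3′ on the gene's strand.
Eif4e (chr3:138527018-138527077, plus strand): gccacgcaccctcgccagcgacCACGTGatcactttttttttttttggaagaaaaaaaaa
Eif4e (chr3:138527177-138527236, plus strand): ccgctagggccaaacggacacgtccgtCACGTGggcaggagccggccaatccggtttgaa
Eif5a (chr11:69921428-69921487, minus strand): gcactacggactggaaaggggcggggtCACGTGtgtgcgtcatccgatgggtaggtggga
Eif5a (chr11:69920776-69920835, minus strand): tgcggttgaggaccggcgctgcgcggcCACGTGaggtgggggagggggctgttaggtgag
Eef2 (chr10:81176561-81176620, plus strand): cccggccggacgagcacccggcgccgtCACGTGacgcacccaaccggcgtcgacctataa
The first base of the match lies 228 and 64 bases before the annotated start in Eif4e, 74 and 178 before separate starts in Eif5a and 43 before the start in Eef2. A match is a description of these letters and not a measured binding site.

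The element TGATGNAA, read on both strands as TGATGNAA or TTNCATCA, resembles the site of ATF4 with C/EBP proteins. It was in 4 of the 57 windows (7.02%), those of Tars, Iars, Yars and Eef2k, and in 3.97% of all windows. The synthetase windows are shown because 3 of the 4 matches belong to synthetases, and these did not share a side, with Tars above 0 and Iars and Yars not past the threshold at negative means.
Tars (chr15:11399659-11399718, minus strand): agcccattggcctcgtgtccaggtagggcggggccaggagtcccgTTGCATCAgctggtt
Iars (chr13:49682126-49682155, plus strand): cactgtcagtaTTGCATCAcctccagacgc
Yars (chr4:129189895-129189924, plus strand): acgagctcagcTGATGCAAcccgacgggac
In Tars the match begins 15 bases before the annotated start, and in Iars and Yars at bases 8 and 4 after it. The 16 members without a window were not searched.

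Factors that assemble the initiation complex and recognise the start codon had 6 measured genes, of which 2 were below 0 and 1 above. Everything tested had 24.1% below and 25.6% above. Eif1a, which encodes eIF1A, a factor that helps the small subunit scan for the start codon, stood at −1.81, −0.64, −0.94, −1.31 and −1.34 in mice 1 to 5. Every mouse was below 0, and mouse 2 was nearest to it. The mean was −1.21 ± 0.44 (SD, n = 5), a 2.31-fold difference (adjusted p = 0.000932). Its X-linked relative Eif1ax had no value on any array.

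The exchange factor eIF2B recharges eIF2 with GTP. Its subunit gene Eif2b1 stood at −0.28, −0.22, −0.29, −0.51 and −0.23 in mice 1 to 5, all below 0, with mouse 4 lowest (mean −0.30 ± 0.12; adjusted p = 0.0052). Eif2b2 lay on the other side at 0.54 ± 0.46 (adjusted p = 0.0275), but in mouse 1 it stood at −0.071 and in mouse 4 at 1.198. It was not past the threshold without mouse 2, 3, 4 or 5 (adjusted p from 0.0514 to 0.0802), and it exceeded Eif2b1 by 0.85 ± 0.54, in 5 of 5 mice. The third subunit measured, Eif2b4, averaged −0.037 ± 0.21 and did not pass (95% interval −0.23 to 0.16). Eif2s2, the beta subunit of eIF2 itself, averaged 0.12 ± 0.29 with an interval of −0.13 to 0.37. Eif6, which keeps the ribosomal subunits apart, had the smallest spread of all members at −0.021 ± 0.022 (−0.13 to 0.085). It is the average of 2 features, whose own standard deviations were 0.027 and 0.055, whereas most members rest on 1 feature.

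Of the kinases that phosphorylate eIF2, the gene of PERK, the sensor of unfolded protein in the endoplasmic reticulum, was above 0 and that of HRI, the haem-regulated kinase, did not pass. Eif2ak3 (PERK) stood at 1.19, 1.42, 1.15, 1.28 and 1.01 in mice 1 to 5. All mice lay within a narrow range well above 0, with a mean of 1.21 ± 0.15 (SD, n = 5), a 2.31-fold difference (adjusted p = 3.55e-05). Eif2ak1 (HRI) stood at 0.051, 0.055, −0.073, −0.026 and −0.17 in mice 1 to 5, on both sides of 0, and averaged −0.032 ± 0.092 over 2 features (95% interval −0.16 to 0.096). The difference between the kinases was 1.24 ± 0.094 and had the same sign in 5 of 5 mice. Eif2ak2 (PKR) had a value on 1 array and Eif2ak4 (GCN2) on none, so neither was tested.

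Genes that respond to eIF2 phosphorylation, from a list of 18 with 14 measured, had 8 below 0, 3 above and 3 that did not pass, beside 24.1% below and 25.6% above for everything tested. All 11 calls are lost if the pool counts as a single control mouse (lowest adjusted p = 0.0759). Below 0 were Chac1, a glutathione-degrading enzyme, at −0.84 ± 0.22 (adjusted p = 0.000364), the serine synthesis enzymes Psat1 at −0.77 ± 0.22 on 4 arrays and Phgdh at −0.45 ± 0.11, and the mitochondrial serine enzyme Shmt2 at −0.41 ± 0.18. The stress regulators Ddit3 (CHOP), Ppp1r15a (GADD34) and Trib3 averaged −0.30, −0.30 and −0.29 and passed. Atf4 itself averaged −0.22 ± 0.16 (adjusted p = 0.0365) and was not past the threshold without mouse 1, 2 or 3 (adjusted p from 0.0839 to 0.0988). Above 0 were the amino acid transporter subunit Slc3a2 at 0.69 ± 0.20 and the transcription factors Cebpb at 0.40 ± 0.17 and Atf3 at 0.33 ± 0.061. Eif2ak3 lay on the side of 0 opposite to most of the list that passed. Phosphorylation of eIF2 was not measured, and a link between the kinase gene and this list was not tested.

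The subunits of eIF3, the large scaffold of the initiation complex, lay on both sides: 5 of 10 measured genes were above 0, 4 below and 1 did not pass. Of everything tested, 25.6% passed above 0 and 24.1% below. If the pool counts as a single control mouse, 1 of these genes stayed above 0 (Eif3a) and 0 below. Eif3a, the largest subunit, stood at 1.16, 1.53, 1.35, 1.02 and 1.07 in mice 1 to 5. It averaged 1.22 ± 0.21 (SD, n = 5), a 2.34-fold difference (adjusted p = 7.16e-05), with every mouse above 1. Eif3h stood at 0.15, 0.91, 0.076, 0.998 and 0.70 in mice 1 to 5. Mice 1 and 3 were near 0 and the other mice well above it, the mean was 0.57 ± 0.43 (adjusted p = 0.0183), and the threshold was missed without mouse 2, 4 or 5 (adjusted p from 0.0539 to 0.062).

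Below 0, Eif3i, a propeller-shaped subunit, stood at −0.81, −0.42, −0.68, −1.06 and −0.68 in mice 1 to 5. Its mean was −0.73 ± 0.23 (adjusted p = 0.000782). Eif3k, a small peripheral subunit, stood at −1.10, −0.68, −0.67, −0.50 and −0.58 in mice 1 to 5, with a mean of −0.71 ± 0.23 (adjusted p = 0.000881). Neither overlapped with Eif3a in any mouse, and Eif3a exceeded Eif3i by 1.95 ± 0.13, in 5 of 5 mice. These subunits of 1 complex, whose proteins assemble together, differed in the sign of their mRNA ratios against the same pool. The mice share that pool and each of the genes rests on 1 feature, so the mice are not independent observations of the sign. The calls of Eif3i and Eif3k are lost if the pool counts as a single control mouse (adjusted p = 0.119 and 0.127).

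The remaining eIF3 genes lay closer to 0. Above it were Eif3l at 0.32 ± 0.11, Eif3d, the subunit that can itself bind a cap, at 0.21 ± 0.087 and Eif3e at 0.49 ± 0.28 on 4 arrays. Below it were Eif3f at −0.28 ± 0.16 and Eif3m at −0.15 ± 0.076. Eif3d was not past the threshold without mouse 3, 4 or 5 (adjusted p from 0.0505 to 0.0517), Eif3e without mouse 3, 4 or 5 (adjusted p from 0.0505 to 0.0561) and Eif3m without mouse 1, 3, 4 or 5 (adjusted p from 0.0746 to 0.115). Eif3c averaged −0.44 ± 0.46 and did not pass (adjusted p = 0.0575), with all mice below 0 but mice 3 and 4 far lower, at −1.10 and −0.76, than the others, between −0.18 and −0.035. Eif3b and Eif3j1 had too few values to be tested.

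Proteins that act at the cap held the members farthest from 0 on each side. Of 10 measured genes of the eIF4 group, 2 were below 0 and 4 above, beside 24.1% and 25.6% of everything tested. Eif4e, which encodes the protein that binds the mRNA cap, stood at −1.77, −1.72, −1.69, −2.16 and −2.15 in mice 1 to 5. It averaged −1.90 ± 0.24 (SD, n = 5), a 3.73-fold difference (adjusted p = 2.56e-05), and 74 of all genes and unnamed features tested lay farther from 0 on either side. Mice 4 and 5 were lowest and the other mice lay within 0.1 of each other.

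The relatives of Eif4e did not share its size. Eif4e2 encodes 4EHP, a cap-binding protein that blocks initiation, and stood at −0.79, −0.31, −0.65, −0.43 and −0.55 in mice 1 to 5 (mean −0.55 ± 0.19; adjusted p = 0.00131). Eif4e3 lay on the other side at 0.27 ± 0.073 (adjusted p = 0.00454). Within mice, Eif4e minus Eif4e2 was −1.35 ± 0.34 and Eif4e minus Eif4e3 −2.17 ± 0.23, below 0 in 5 of 5 mice each.

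The 3 eIF4A helicase genes were all above 0. Eif4a2, which unwinds mRNA for the small subunit, stood at 1.58, 1.58, 1.48, 1.75 and 1.65 in mice 1 to 5, averaging 1.61 ± 0.10 (SD, n = 5), a 3.04-fold difference (adjusted p = 1.12e-05). Eif4a1, its near-identical and usually more abundant paralog, stood at 0.58, 0.31, 0.32, 0.76 and 0.49 in mice 1 to 5 and averaged 0.49 ± 0.19 (adjusted p = 0.00219). Eif4a3, which belongs to the exon junction complex and not to cap binding, stood at 0.57, 0.85, 0.48, 0.85 and 0.58 in mice 1 to 5 and averaged 0.67 ± 0.17 (adjusted p = 0.000463). Eif4a2 exceeded Eif4a1 by 1.12 ± 0.12 and Eif4a3 by 0.94 ± 0.13, in 5 of 5 mice each, although cross-hybridisation between such close paralogs was not tested.

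Eif4a2 was the only member spotted many times, with 17 features of 1 transcript accession, which shows how far repeat measurements of 1 RNA on 1 array disagree. The feature means ran from 1.27 to 2.12 with a median of 1.65, and all 85 single values lay between 1.15 and 2.24. Within a mouse the features had a standard deviation of 0.18 to 0.24, and between mice a single feature had a median standard deviation of 0.15. Averaging the 17 brought the standard deviation between mice to 0.10. Most other members rest on 1 feature, and for these a difference between features cannot be seen.

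**Figure D3:**
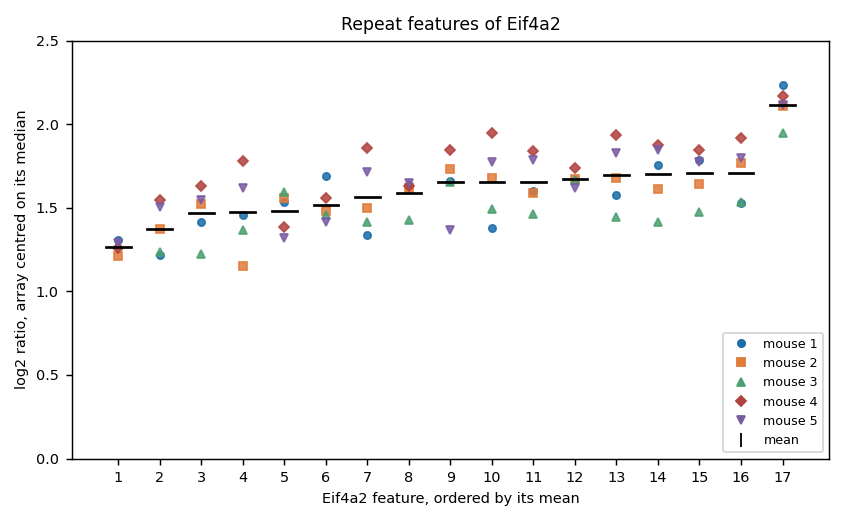
Log2 ratio (vertical axis, array centred on its median) of the 17 features of Eif4a2, ordered by their mean (horizontal axis), with a point for each mouse and a bar for the mean. Every point is above 1.1, 15 of the 17 feature means lie between 1.38 and 1.71, and the lowest and highest stand at 1.27 and 2.12.

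Further eIF4 genes did not pass. The helicase stimulators Eif4b and Eif4h averaged 0.037 ± 0.26 (4 arrays, 95% interval −0.22 to 0.29) and 0.20 ± 0.30 (−0.065 to 0.46). The scaffold Eif4g3 averaged 0.059 ± 0.048 (−0.078 to 0.20) and Eif4g2, a relative that lacks the site for eIF4E, −0.070 ± 0.077 (−0.22 to 0.076), each on 4 arrays. These intervals hold for the spread of these mice with the pool taken as fixed. Eif4g1 was not analysed here.

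Proteins that hold eIF4E away from eIF4G had smaller ratios. Eif4ebp1, the best known target of mTOR in this step, stood at −0.27, −0.14, −0.30, −0.41 and −0.051 in mice 1 to 5. All mice were below 0, the mean was −0.23 ± 0.14 (adjusted p = 0.0213), and the threshold was missed without mouse 1, 3 or 4 (adjusted p from 0.0511 to 0.0662). Eif4ebp2 stood at −0.40, 0.20, 0.14, 0.28 and 0.13 in mice 1 to 5, with mouse 1 alone below 0, and averaged 0.069 ± 0.27 (95% interval −0.17 to 0.31). Without mouse 1 its mean was 0.19 and passed (adjusted p = 0.0357). Eif4enif1, which carries eIF4E into the nucleus and to decay granules, stood at 0.35, 0.34, 0.19, 0.33 and 0.66 in mice 1 to 5, all above 0 (mean 0.37 ± 0.17; adjusted p = 0.00532). Eif4ebp1 was lower than Eif4ebp2 in 4 of 5 mice (exact sign-flip p = 0.125).

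Genes of the mTOR arm, 9 of 13 measured, had 2 below 0, 2 above and 5 that did not pass. The share of 22.2% on each side was close to the 24.1% below and 25.6% above of everything tested. All 4 calls are lost if the pool counts as a single control mouse (lowest adjusted p = 0.334). Mtor itself averaged 0.21 ± 0.033 (adjusted p = 0.00819), with the smallest spread of this list, and its partner Mlst8 −0.35 ± 0.18 (adjusted p = 0.00833). The activating GTPase Rheb averaged 0.48 ± 0.48 (adjusted p = 0.0487), but was −0.33 in mouse 1 and was not past the threshold without mouse 2, 3, 4 or 5 (adjusted p from 0.0953 to 0.143). Mknk1, a kinase of eIF4E, averaged −0.25 ± 0.23 (adjusted p = 0.049) and was not past it without mouse 2, 3, 4 or 5 (adjusted p from 0.087 to 0.1).

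The poly(A) and cap partners of the eIF4 group had 4 of 8 measured genes above 0 and 2 below, beside 25.6% and 24.1% of everything tested. Pabpc1 alone kept its call with the pool counted so. Pabpc1, the poly(A)-binding protein that bridges to eIF4G, stood at 1.02, 1.83, 1.54, 1.49 and 1.11 in mice 1 to 5, averaging 1.40 ± 0.33, a 2.63-fold difference (adjusted p = 0.000173, and adjusted p = 0.0461 if the pool counts as a single control mouse). Its partner Paip1 averaged 0.68 ± 0.31 and the helicase Ddx3x 0.41 ± 0.15, while Mcts1, which acts in recycling and reinitiation, averaged −0.47 ± 0.26. Ncbp2, the nuclear cap-binding subunit, averaged 1.03 ± 0.90 (adjusted p = 0.0285) with mice from −0.17 to 2.02, and was not past the threshold without mouse 1, 2 or 3 (adjusted p from 0.0712 to 0.0896). Denr, the partner of Mcts1, averaged −0.15 ± 0.064 and was not past it whichever mouse was left out (adjusted p from 0.0538 to 0.108).

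Elongation factors lay on both sides of 0, with the genes of eEF1A1 and eEF2 above it. The 9 measured genes of this role include Eef2k and Eef1e1, which are not themselves elongation factors. Of these 9, 5 were below 0 and 2 above, beside 24.1% and 25.6% of everything tested. If the pool counts as a single control mouse, 0 stayed below and 1 above (Eef1a1). Eef1a1, which delivers aminoacyl-tRNA to the ribosome, stood at 1.57, 1.56, 1.52, 1.09 and 1.74 in mice 1 to 5. The mean was 1.49 ± 0.24 (SD, n = 5), a 2.82-fold difference (adjusted p = 5.14e-05), with mouse 4 lowest. Eef2, which moves the ribosome by a codon, stood at 1.35, 0.79, 0.78, 1.15 and 1.07 in mice 1 to 5, averaging 1.03 ± 0.24, a 2.04-fold difference (adjusted p = 0.000215, but adjusted p = 0.0534 if the pool counts as a single control mouse).

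The nucleotide exchange complex of eEF1A lay below 0 or did not pass. Eef1b2, its catalytic subunit, stood at −1.44, −1.199, −0.72, −2.40 and −2.40 in mice 1 to 5. Mice 4 and 5 were nearly equal and far below the other mice, and the mean was −1.63 ± 0.75 (SD, n = 5), a 3.1-fold difference (adjusted p = 0.00209). The structural subunit Eef1g averaged −0.33 ± 0.23 (adjusted p = 0.0201), all mice below 0, and was not past the threshold without mouse 2 or 3 (adjusted p from 0.0583 to 0.0674). Eef1d, a further exchange subunit, averaged −0.15 ± 0.27 on 4 arrays and did not pass (95% interval −0.42 to 0.12). Eef1a1 exceeded Eef1b2 by 3.13 ± 0.72, in 5 of 5 mice.

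Eef1a2, the isoform that replaces eEF1A1 in muscle and neurons, stood at −0.44, −0.49, −0.52, −0.25 and −0.42 in mice 1 to 5. It averaged −0.42 ± 0.10 (adjusted p = 0.00104), on the side opposite to Eef1a1, which exceeded it by 1.92 ± 0.33 in 5 of 5 mice. The mean of 9 skeletal muscle markers, of which Tnni2 had no value in mouse 4, was −4.26, −3.48, −0.085, −1.18 and −3.27 in the same mice. Among the mice, mice 3 and 4 had the skeletal muscle means nearest 0, and Eef1a2 was lowest in mouse 3 and highest in mouse 4. Cardiac muscle markers lay on the other side of 0. Over those measured in each mouse, their mean was 1.87, 0.73, 1.14, 1.04 and 1.23 in mice 1 to 5. The part of muscle in the ratio of Eef1a2 was not tested.

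Eif5a, whose product carries the modified residue hypusine and helps ribosomes over difficult stretches, stood at −1.13, −0.75, −0.72, −1.52 and −0.998 in mice 1 to 5. It averaged −1.03 ± 0.33 (SD, n = 5), a 2.04-fold difference (adjusted p = 0.000581), with mouse 4 lowest. Eef2k, the kinase that inactivates eEF2, stood at −0.23, −0.18, −0.28, −0.18 and −0.095 in mice 1 to 5, all below 0 and so opposite to Eef2 (mean −0.19 ± 0.068; adjusted p = 0.0173), and was not past the threshold without mouse 3 (adjusted p = 0.0571). Eef1e1, named after the elongation complex but a scaffold of the synthetase complex, averaged −0.022 ± 0.25 and did not pass (−0.25 to 0.20).

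Of 3 genes for methyltransferases of eEF1A, Eef1akmt1 was below 0 at −1.002, −0.61, −0.70, −0.17 and −0.42 in mice 1 to 5 (mean −0.58 ± 0.31; adjusted p = 0.00544). Eef1akmt2 and Eef1aknmt averaged −0.11 ± 0.12 and −0.072 ± 0.085 and did not pass. Termination and recycling had 1 of 3 measured genes above 0, the release factor Etf1 at 0.69 ± 0.40 on 4 arrays (adjusted p = 0.0109), and 0 below. Of the elongation and initiation factors of mitochondria 1 of 3 was above 0, the exchange factor Tsfm at 0.35 ± 0.12 (adjusted p = 0.00319), and 0 below.

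Synthetase genes lay on the positive side or did not pass. Of 16 measured, 8 were above 0 (50%) and 0 below by limma, with 2 below 0 at an unadjusted p under 0.05 (Yars and Iars), beside 25.6% and 24.1% of everything tested. Their median log2 ratio was 0.11, and it was 0.17, 0.081, 0.094, 0.076 and 0.23 in mice 1 to 5, over the synthetases measured in each. The count above 0 was 5 without mouse 3 and 4 without mouse 5, 0 with the pool as a single control mouse, and 2 against a minimum of 1.2-fold.

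Of 11 cytosolic synthetases 6 were above 0. Vars, which charges valine, stood at 0.72, 0.49, 0.96 and 0.92 in mice 1, 2, 4 and 5 and averaged 0.77 ± 0.21 (SD, n = 4), a 1.71-fold difference (adjusted p = 0.00116). Qars, the glutamine enzyme, stood at 0.49, 0.37, 0.60, 0.53 and 0.36 in mice 1 to 5, close together and all above 0 (mean 0.47 ± 0.10; adjusted p = 0.000693). Vars and Qars were the synthetases that also passed against that minimum (adjusted p = 0.00714 and 0.0261).

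Smaller positive ratios belonged to Tars (threonine) at 0.37 ± 0.10, Hars (histidine) at 0.36 ± 0.20 and Kars (lysine) at 0.31 ± 0.23. Wars, the tryptophan enzyme, which interferon gamma induces in many cells, stood at 0.32, 0.082, 0.17, 0.11 and 0.20 in mice 1 to 5 and averaged 0.18 ± 0.092 (adjusted p = 0.0317). Kars was not past the threshold without mouse 2, 3 or 5 (adjusted p from 0.0642 to 0.0797) and Wars without mouse 1, 3, 4 or 5 (adjusted p from 0.0526 to 0.0826). Nars, Cars and Sars, the enzymes of asparagine, cysteine and serine, averaged −0.062, 0.014 and 0.051 and did not pass, with 95% intervals of −0.19 to 0.062, −0.19 to 0.22 and −0.071 to 0.17.

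The tyrosine enzyme stood apart by its spread. Yars stood at 0.071, −0.44, −0.26, −1.70 and −1.203 in mice 1 to 5, so that mouse 1 was above 0 and mice 4 and 5 far below it. The mean of −0.71 ± 0.73 just missed the threshold (adjusted p = 0.0506), and it passed without mouse 1 at −0.90 (adjusted p = 0.0248). Mice 4 and 5 were also the lowest for Eef1b2 and Eif4e. Iars, the isoleucine enzyme, was below 0 on all 4 measured arrays at −0.21 ± 0.14 (adjusted p = 0.0552), and Lars and Rars had values on 2 arrays only.

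Of 5 measured mitochondrial synthetases, 2 were above 0 and 0 below, beside 25.6% and 24.1% of everything tested. Tars2 stood at 0.21, 0.10, 0.16, 0.19 and 0.25 in mice 1 to 5 (mean 0.18 ± 0.053; adjusted p = 0.018) and was not past the threshold without mouse 5 (adjusted p = 0.0577). Cars2 stood at 0.34, 0.079, 0.087, 0.094 and 0.43 in mice 1 to 5 (mean 0.21 ± 0.17; adjusted p = 0.0475) and was not past it whichever mouse was left out (adjusted p from 0.0626 to 0.134). Sars2, Ears2 and Yars2 averaged −0.14, −0.047 and 0.037 and did not pass. Sars2 was below 0 in 4 of 5 mice and passed at −0.20 without mouse 4 (adjusted p = 0.0354).

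Synthetases and scaffolds outside the naming pattern gave a further contrast. Eprs, the enzyme of glutamate and proline, averaged 0.28 ± 0.15 and passed (adjusted p = 0.0137), and Farsb, a subunit of the phenylalanine enzyme, averaged 0.080 ± 0.044 and did not. Aimp1, a scaffold of the complex that holds several cytosolic synthetases, stood at −1.26, −0.55, −0.69, −0.61 and −0.61 in mice 1 to 5, all below 0 (mean −0.74 ± 0.29; adjusted p = 0.00152). Of the 25 calls among the 40 pathway genes outside the naming pattern, those of Aimp1, Eprs, Etf1 and Tsfm included, 24 are lost if the pool counts as a single control mouse. Of everything tested, 49.7% passed, and 4.95% with the pool counted so.

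**Figure D4:**
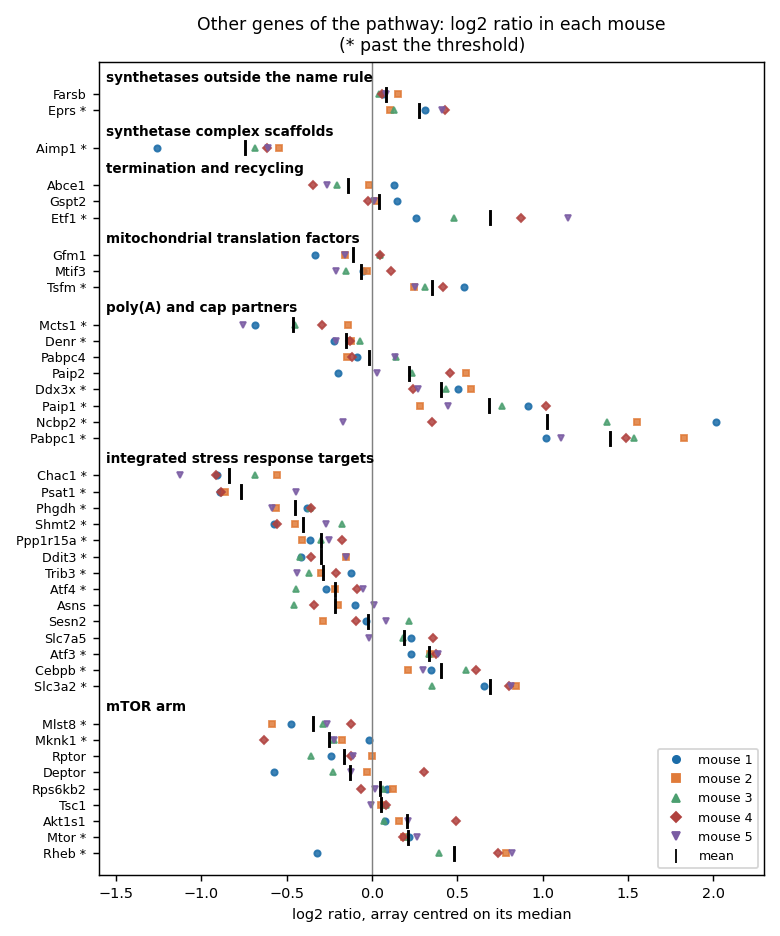
Log2 ratio (horizontal axis, array centred on its median) in each mouse for genes of the pathway outside the naming rule, grouped by role, with the mean as a bar and an asterisk where limma's adjusted p was under 0.05. Pabpc1 lies farthest to the right and Chac1, Psat1 and Aimp1 farthest to the left, and Ncbp2 and Rheb spread widely between mice.

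Differences between members were computed for 10 pairs, chosen after their values were seen. An exact two-sided sign-flip test over 5 mice cannot go below p = 0.0625, which 9 pairs reached (Benjamini-Hochberg over the pairs, adjusted p = 0.0694), so these differences are given by size and sign only. The exception was Eif4ebp1 against Eif4ebp2. The sign-flip test needs no model of the spread, and it cannot bring any single gene of this series past the threshold.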

How the data were processed

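The authors deposited 1 log ratio per feature and array, already centred near 0, and these values were taken as log2. No source used here gives the log base, scanner, dyes, background correction or normalization. Spot brightness is therefore unknown, and precision rests on the 5 arrays. Symbols came from the platform's annotation, and 14445 of 14722 features with 1 symbol matched a RefSeq gene (GRCm38.p6), whose symbol was used for genes outside the members. Features with values on at least 4 of 5 arrays (10702) were kept, each array was centred on its median over them, and features of a symbol were averaged. The R (4.3.3) package limma 3.58.1 compared each mean with 0 (intercept only, moderated, two-sided, Benjamini-Hochberg over 10081), and the procedure was run on simulated ratios. These held no error shared through a pool, so that run does not bear on the pool. The pool is 1 control sample whose own spread is not in the test, and dye bias does not cancel. P-values rest on the spread between these arrays, 1 per mouse, moderated over all genes. Differences between mice and noise of an array cannot be separated in that spread. Values in every mouse are given for members at least 2-fold from 0, for the 2 farthest on each side in each role among those past the threshold with all arrays on that side, and for members fixed by role. Some further genes were named after their values were seen. Members and lists were chosen with earlier results of these data known. No columns of other samples were present. Alternatives were no centring, other feature filters, arrays scaled to a common spread, the median of features, no moderation, a 1.2-fold minimum, the pool as 1 control mouse, and each mouse left out.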

Additional observations from a re-analysis of the deposited data

Results flagged for a closer look

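In 5 members, 1 mouse stood far from the others, with a gap to its neighbour that took up most of the range. Mouse 4 was the one set apart in 3 of them: Eif2b1 stood at −0.51 there and between −0.29 and −0.22 elsewhere, Eif2s2 at 0.63 against −0.10 to 0.059, and Eif4b at −0.34 against 0.14 to 0.21. Mouse 1 was set apart for Eif4ebp2, at −0.40 against 0.13 to 0.28, and for Nars, at −0.21 against −0.059 to −0.0080. The limit used for that gap, Dixon's 95% critical value, marks about 1 in 20 groups by chance if values are normally distributed.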

How the results depend on the processing

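Over the alternatives, 4 counts were followed: factors below 0 (15), factors above 0 (14), synthetases above 0 (8) and synthetases below 0 (0), beside 5008 for everything tested. No further centring, features on at least 3 arrays, the median of features and no moderation left all of them within 1.5 times. Requiring 1.2-fold gave 7, 6 and 2 for the first 3 and 1855 for everything tested, and the pool as 1 control mouse gave 1, 4 and 0, and 499. Synthetases below 0 numbered 1 with features on all 5 arrays (Yars) and 2 with arrays scaled to a common spread (Yars and Iars). Leaving out each mouse gave 11 to 14 factors below 0, 10 to 15 above, 4 to 6 synthetases above, 0 to 1 below and 4115 to 4607 for everything tested. Among the 37 members past the threshold, 25 passed whichever mouse was left out and 12 did not. The same count was not made over everything tested, so it does not set the members apart. Only means near 0 changed sign, none of them past the threshold on either side: Eif2ak1 was 0.0040 with features on all 5 arrays, and with mice left out the means ran from −0.041 to 0.077 for Cars, −0.11 to 0.065 for Eef1e1, −0.019 to 0.16 for Eif4b, −0.11 to 0.0080 for Ears2, −0.099 to 0.026 for Eif2b4, −0.0083 to 0.17 for Eif2s2 and −0.053 to 0.0019 for Eif2ak1. The cause of these changes was not tested. No paired analysis was possible because the series has 1 group. If the values are on another log base, every fold size changes and no side of 0 does.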
